A study of Tachycineta bicolor and Sialia sialis and Hirundo rustica with 121 samples.

Results

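The swallow family, Hirundinidae, was set against 4 other songbird families in the ventromedial telencephalon, a forebrain region sampled from wild adults while they were settling on territories or building nests, before eggs were laid. The swallows were 25 birds, set against 96 others, and all birds of the study entered. They comprised 13 Tree Swallows (7 females and 6 males), which are obligate cavity nesters, and 12 Barn Swallows (6 of each sex), which build open cups. The other birds came from 8 species with 6 females and 6 males each. These were the Prothonotary Warbler (obligate cavity nester) and Yellow Warbler (open cup), the Eurasian Tree Sparrow (obligate) and House Sparrow (facultative cavity nester), the House Wren (obligate) and Carolina Wren (facultative), and the Eastern Bluebird (obligate) and American Robin (open cup). No bird received a treatment according to the labels.

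Swallows are aerial insectivores that catch prey in flight, and their 2 species here were compared as relatives rather than as nest types. Songbird families have had separate evolutionary histories for a long time, and transcript levels in the same brain region drift along each lineage as well as responding to ecology. Swallows belong to the songbird group Sylvioidea. In birds males carry ZZ and females ZW sex chromosomes, and in Sylvioidea part of an ancestral autosome, chromosome 4A, has been joined to that pair. Many of the genes on chromosome 4A have human counterparts on the X chromosome.

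A gene was said to separate swallows when the means of both swallow species lay above, or both below, the means of all 8 other species. Each mean was taken over the log2 CPM (CPM, the count scaled to the size of the library by TMM, with a prior count of 2) of the birds of a species. Of 10637 genes tested, 690 (6.49%) separated swallows upward and 710 (6.67%) downward, which made 1400 (13.2%) together. The same rule applied to the other families gave 1248 genes (11.7%) for the wrens, 1143 (10.7%) for the warblers, 1107 (10.4%) for the sparrows and 943 (8.87%) for the thrushes. The swallow count was the highest of the 5, and the families were not tested against each other. With library size alone in place of TMM, 927 genes lay above and 543 below, so the upward share of the separating genes was 63.1% in place of 49.3%. That scaling moved the median difference of all genes from 0.00431 to 0.107 on the log2 scale.

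**Figure D1:**
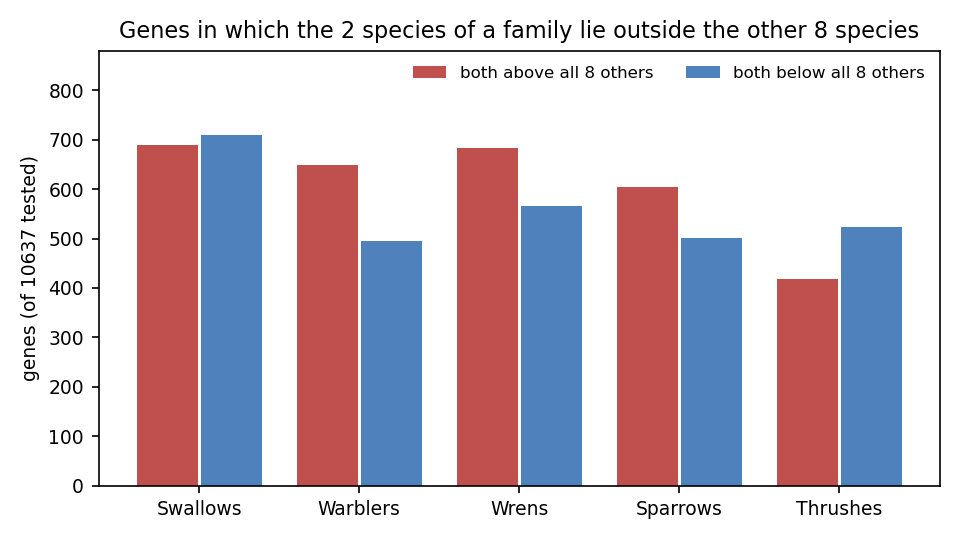
Number of genes (vertical axis, of 10637 tested) in which both species of a family lay above (red) or below (blue) the means of the other 8 species. The swallow bars reach 690 and 710 genes, and the 5 families lie between 943 and 1400 genes in all.

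Most separations were narrow. The median gap between the nearest swallow mean and the nearest other mean was 0.166 log2 units for the higher genes and 0.227 for the lower ones, and 226 and 179 genes had gaps under 0.1. A gap of at least 1 log2 unit was found for 14 higher and 48 lower genes. At the edge of the rule, TFDP1, a partner of the E2F cell cycle factors, averaged 23.5 CPM in Tree Swallows and 19.0 in Barn Swallows against a highest other species mean of 19.0, and was just inside. SMIM15 averaged 19.3 and 17.5 CPM against 17.7 and was just outside. On the lower side GPAA1, which attaches lipid anchors to proteins, averaged 7.44 and 7.85 CPM against a lowest other mean of 8.61 and was just inside. ARRDC2 averaged 10.8 and 14.0 CPM against 13.1 and was just outside.

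The rule favours genes in which both swallows have like levels, so the distance between them in these genes is a description. Their means lay within 1 log2 unit of each other for 675 of the 690 higher and 653 of the 710 lower genes, against 85.52% of all genes tested. The median absolute difference between Tree and Barn Swallows was 0.163 for the higher and 0.279 for the lower genes, and 0.379 over all genes. Over the whole table the root mean square log2 distance between them was 0.805, and their distance to other families ran from 0.991 to 1.07. The pairs of the other families were 0.752 (wrens) to 0.909 (thrushes) apart, and 0.911 to 1.07 from species outside their family. Computed in each sex alone, 436 of the higher and 451 of the lower genes separated swallows in females and in males. The same birds had chosen these genes, so these counts are a description as well.

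Each of the 25 swallow libraries was nearer, by correlation, to its own species' mean than to any other. That mean includes the library itself, which favours the match. Library totals ran from 4814233 to 6565380 reads in swallows and from 4526413 to 7549296 in the other birds. Barn Swallow females 4 and 3 had the lowest median correlation with the other birds of their group, 0.892 and 0.896, and the next lowest swallow had 0.928. Mitochondrially encoded genes took 6.90% ± 0.775 (SD, n = 13) of counts in Tree Swallows and 8.04% ± 1.1 (SD, n = 12) in Barn Swallows, within the range of other species means from 6.12% to 20.2%. Each species' reads were counted on genes named by zebra finch protein. The sources used here do not give the sequence to which each species' reads were aligned. How well reads match it can move a gene's count, and its part in these differences was not tested.

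Under a test that takes species as the units and lets the species of a family be correlated (limma on 10 species means, Benjamini-Hochberg), 15 genes (0.141%) were lower in swallows and 0 (0%) were higher at an adjusted p under 0.05. The same test of each other family called 0 higher and 5 lower genes for the warblers and 0 and 3 for the sparrows. It called 1 and 2 for the wrens and 0 and 1 for the thrushes, so calls were mostly lower there too. Before adjustment 853 genes (8.02%) had p under 0.05 in the swallow test, 296 higher (2.78%) and 557 lower (5.24%). With single birds as units and species as a correlated block, voom gave 372 higher and 232 lower genes. Fits that took birds of a species as independent draws of their family gave 2907 and 3494 with edgeR, and 2932 and 3582 with DESeq2. All 15 genes that passed also separated swallows by the rule. The test and the rule use the same species means, so this overlap is no separate evidence. Since one family stands on one side, a property of swallows cannot be told apart from any other property of their family. In bulk tissue, fewer cells of a type and less RNA per cell cannot be told apart either.

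The gene with the lowest adjusted p was KCNRG, a regulator that in human cells binds voltage-gated potassium channel subunits and limits their assembly. It ranged from 0 to 1.61 CPM in Tree Swallows (median 0.336) and from 0 to 1.11 in Barn Swallows (median 0.317). The 96 other birds ranged from 7.69 to 32.9 CPM with a median of 19.6. No swallow came near the lowest of the others, and the difference was -4.73 ± 0.43 (SE) log2 units with an adjusted p of 0.00159. TIA1, an RNA-binding protein of stress granules, was at a median of 0 CPM in Tree Swallows (highest 1.40) and 0.072 in Barn Swallows (highest 0.709). In the other birds it ran from 2.97 to 16.4 CPM with a median of 7.62. The swallows and the others did not overlap, and the difference was -3.99 ± 0.43 log2 units (adjusted p 0.00321).

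ADCY3, an adenylyl cyclase that makes cyclic AMP and sits in the primary cilia of mammalian neurons, ranged from 1.57 to 10.0 CPM in Tree Swallows (median 3.65) and from 0 to 4.23 in Barn Swallows (median 1.47). The other birds ranged from 18.9 to 99.9 CPM, median 45.5. Every swallow lay below every other bird, at a difference of -4.12 ± 0.44 log2 units (adjusted p 0.00321). LRFN2, a synaptic adhesion protein, had medians of 3.67 CPM in Tree Swallows (1.92 to 6.55) and 1.16 in Barn Swallows (0 to 6.39). It varied little among the rest, whose species means ran only from 36.9 to 47.0 CPM and whose birds ran from 26.0 to 74.6. The difference was -4.15 ± 0.51 log2 units (adjusted p 0.00647).

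LRRC59, a ribosome-binding protein of the endoplasmic reticulum membrane, ranged from 1.19 to 3.58 CPM in Tree Swallows and from 0.338 to 2.94 in Barn Swallows, against 12.2 to 68.8 in the other birds. Its groups were apart in every bird, with a difference of -4.18 ± 0.46 log2 units (adjusted p 0.00322). CACNG7, an auxiliary subunit of AMPA-type glutamate receptors, had medians of 0.878 CPM in Tree Swallows (0.325 to 1.68) and 0.742 in Barn Swallows (0.177 to 1.51). The other birds spread widely, from 2.91 to 104 CPM with a median of 28.0, and the thrushes had the lowest means, 7.33 in the Eastern Bluebird and 11.1 in the American Robin. The difference was -4.50 ± 0.75 log2 units at an adjusted p of 0.0489, and leaving out each species in turn ended that call in 9 of 10 fits (adjusted p up to 0.125).

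ATP5MC1, a nuclear gene for subunit c of the mitochondrial ATP synthase, ranged from 1.57 to 17.9 CPM in Tree Swallows (median 6.76) and from 1.86 to 13.3 in Barn Swallows (median 4.31). Other birds ranged from 10.8 to 84.0 CPM, median 37.7, so a few birds overlapped. The difference was -2.64 ± 0.30 log2 units (adjusted p 0.00322). ATP5MC1 passed in all 10 fits that leave out a species but not in the voom fit on birds (adjusted p 0.231). Subunit c is encoded by several genes, and the sources used here do not say how reads shared between them were counted. RPS19, a protein of the small ribosomal subunit, had medians of 36.6 CPM in Tree Swallows (7.00 to 75.7) and 25.5 in Barn Swallows (12.6 to 80.8) against 123 in the others (26.6 to 373). Its groups overlapped, the difference was -1.87 ± 0.29 log2 units (adjusted p 0.0350), and it passed in 1 of the 10 fits that leave out a species (highest adjusted p 0.102).

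ZBTB39, a zinc finger protein, had species means of 0.621 and 0.520 CPM in Tree and Barn Swallows against 5.06 to 14.0 elsewhere (log2 difference -3.38 ± 0.47, adjusted p 0.0159). CHTF18, part of a clamp loader used in chromosome cohesion, had means of 1.21 and 0.176 CPM against 6.25 to 17.8 (-3.89 ± 0.60, adjusted p 0.0350). CAMSAP3, which binds microtubule minus ends, had means of 5.50 and 2.4 CPM against 21.6 to 52.3 (-3.01 ± 0.50, adjusted p 0.0487). Leaving out a species kept ZBTB39 past the threshold in 9 of 10 fits, CHTF18 in 3 and CAMSAP3 in 1, with highest adjusted p of 0.0542, 0.0834 and 0.117.

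CKLF, a chemokine-like factor, had means of 0.239 CPM in Tree Swallows and 0.494 in Barn Swallows against 3.93 to 9.86 in the other species (-3.30 ± 0.47, adjusted p 0.0184). It lost its call without Tree Swallows (adjusted p 0.0590) and without American Robins. ARHGEF10L, an exchange factor for small GTPases, had means of 10.7 and 14.8 CPM against 48.8 to 76.8 (-2.23 ± 0.30, adjusted p 0.0117). MAPKAPK2, a kinase activated by p38, had means of 10.5 and 8.68 CPM against 23.7 to 46.6 (-2.05 ± 0.34, adjusted p 0.0489). The fifteenth gene, LOC115498412, has no symbol in the files and had means of 0.562 and 1.96 CPM against 14.6 to 54.6. When whole families were the units, with 1 mean for swallows against 4, only ADCY3 and LRFN2 passed (limma, adjusted p 0.0388 each), and 697 genes had an unadjusted p under 0.05.

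The following close relatives of some of these genes were chosen after their values were seen, so their smaller differences are a description. TIAL1, the sister of TIA1, differed by 0.37 ± 0.55 log2 units (limma adjusted p 0.927), and LRFN5 by -0.10 ± 0.33 (adjusted p 0.978). Among other subunits related to CACNG7, CACNG3 differed by -0.27 ± 0.31 and CACNG8 by -0.20 ± 0.66. MAPKAPK3 differed by 0.31 ± 0.39, and ATP5MC3, a second gene for subunit c, by -0.45 ± 0.46 (adjusted p 0.878). None of these lay outside the other species by the rule.

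**Figure D2:**
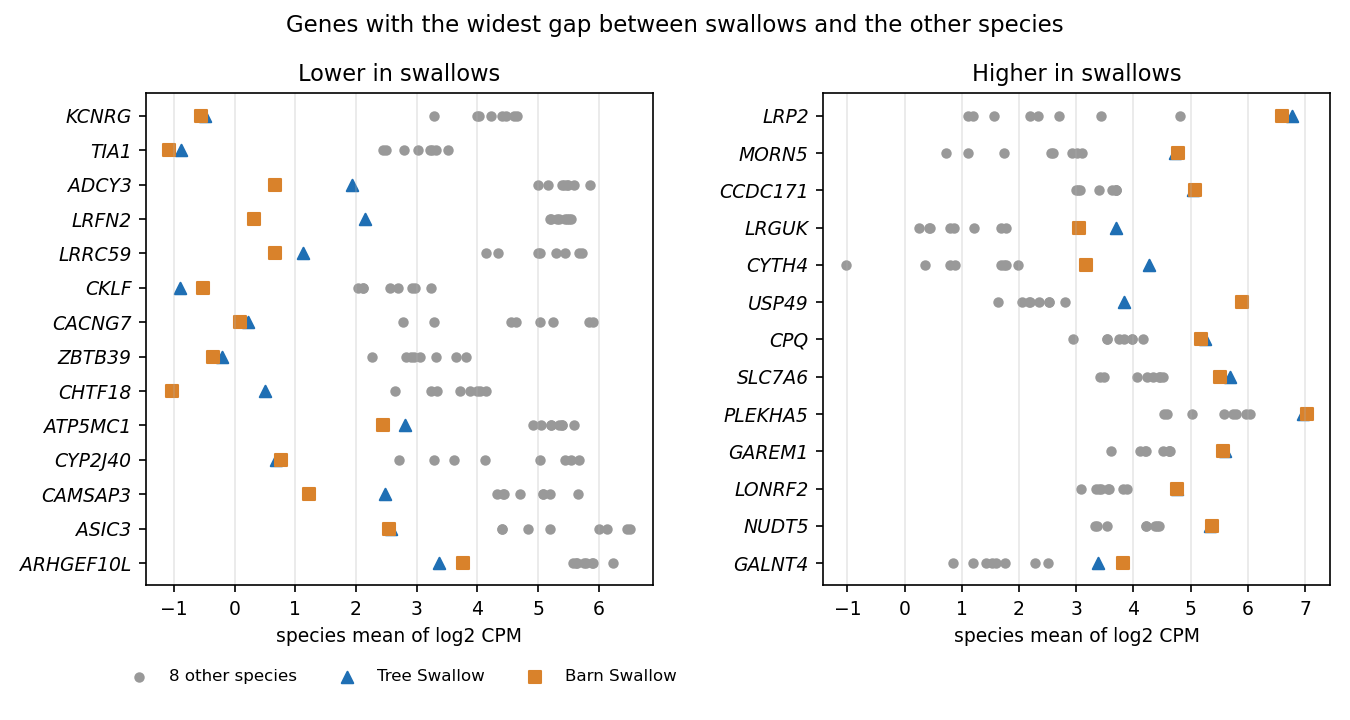
Species means of log2 CPM (horizontal axes) for 14 lower and 13 higher genes with the widest gaps, with Tree Swallows as triangles, Barn Swallows as squares and the 8 other species as grey points. KCNRG leads the lower genes with swallow means near -0.5, and LRP2 leads the higher genes; in several genes, USP49 and ADCY3 among them, the swallows also stand apart from each other.

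Among the lower genes with the widest gaps, 2 did not pass the test. CYP2J40, a cytochrome P450, had medians of 1.68 CPM in Tree Swallows (0 to 2.97) and 1.92 in Barn Swallows (0 to 3.83) against 27.4 in the others (2.85 to 81.7). The other species differed among themselves, from 7.84 CPM in House Sparrows to 53.0 in Eastern Bluebirds, and the difference was -3.70 ± 0.93 log2 units (adjusted p 0.269). ASIC3, an acid-sensing ion channel, had medians of 5.53 CPM (3.20 to 8.65) and 5.38 (2.71 to 20.9) in Tree and Barn Swallows against 50.3 in the others (7.54 to 172). Its difference was -2.94 ± 0.71 log2 units (adjusted p 0.269).

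No higher gene passed the test, so the following values describe levels only. LRP2, or megalin, an endocytic receptor that takes up carrier-bound vitamins and hormones, had the widest gap of the higher genes with a symbol at a mean of 5 CPM or more in both swallows. It ranged from 79.6 to 233 CPM in Tree Swallows (median 106) and from 71.3 to 200 in Barn Swallows (median 91.0). The other birds ranged from 0 to 38.7 CPM with a median of 4.51, and their species means ran from 1.94 in Carolina Wrens to 28.7 in Prothonotary Warblers. Every swallow lay above every other bird, and the difference was 4.27 ± 0.89 log2 units (adjusted p 0.171), with an error widened by the spread among the other species. MORN5 ranged from 15.3 to 46.2 CPM in Tree Swallows and 15.2 to 46.3 in Barn Swallows, against 0 to 13.2 in the others, which did not overlap (2.54 ± 0.72, adjusted p 0.336).

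Other higher genes with wide gaps were of varied function. USP49, a deubiquitinase, was the most uneven, with a median of 14.6 CPM in Tree Swallows (6.80 to 18.6) and 61.2 in Barn Swallows (43.6 to 69.6) against 4.68 in the others (0 to 11.6). CPQ, a secreted carboxypeptidase, had means of 39.1 and 37.4 CPM against 7.69 to 19.3. SLC7A6, an amino acid exchanger, had means of 51.7 and 47.3 CPM against 11.1 to 22.9. GALNT4, which starts mucin-type sugar chains, had means of 10.4 and 14.2 CPM against 1.78 to 5.50. NUDT5, an ADP-sugar hydrolase, had means of 40.7 and 42.4 CPM against 9.98 to 22.0. CYTH4, an ARF exchange factor, had means of 19.5 and 10.1 CPM against 0.184 to 3.87. LRGUK, needed for sperm formation in mice, had means of 13.0 and 8.54 CPM against 1.02 to 3.47. In all 7 of these genes the adjusted p (limma) lay between 0.269 and 0.383.

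Separation of single birds was rarer than separation of species means. In 6 genes (0.0564%) all 25 swallows lay above all 96 other birds, and in 17 genes (0.16%) all lay below. Among the 6 were LRP2, MORN5, ASCC2, RABGEF1 and the unnamed LOC100190538. ASCC2, part of a complex that clears stalled ribosomes, ran from 52.6 to 83.6 CPM in swallows and from 15.9 to 47.9 in the others. RABGEF1, an exchange factor for the endosomal GTPase RAB5, ran from 95.6 to 207 CPM against 6.22 to 91.2.

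The 17 lower genes included 7 with a symbol that did not pass the test. COPG1, a coat protein of vesicles returning from the Golgi, ran from 62.3 to 155 CPM in swallows against 204 to 693 in the others, a difference of -1.96 ± 0.39 log2 units (adjusted p 0.133). ATF6, a sensor of unfolded proteins in the endoplasmic reticulum, ran from 24.9 to 46.5 CPM against 48.6 to 109 (-1.13 ± 0.28, adjusted p 0.269). TMEM30A, a partner of lipid flippases, was abundant in all birds, at 225 to 360 CPM in swallows and 372 to 619 in the others. ZNF638, a nucleic acid-binding zinc finger protein, ran from 12.3 to 31.5 CPM against 38.8 to 274. CREG2, TTLL5 and ZZZ3 were the others among these with a symbol outside the naming rule.

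The functional groups below are described by how many of their measured members separated swallows, beside 6.49% upward and 6.67% downward over all genes. For some lists the median log2 difference is given too, beside 0.00431 over all genes. Where the number of differences above 0 is given, it stands beside 5345 of all 10637 genes. No test was made of a list, and except where named above no member passed the limma test.

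**Figure D3:**
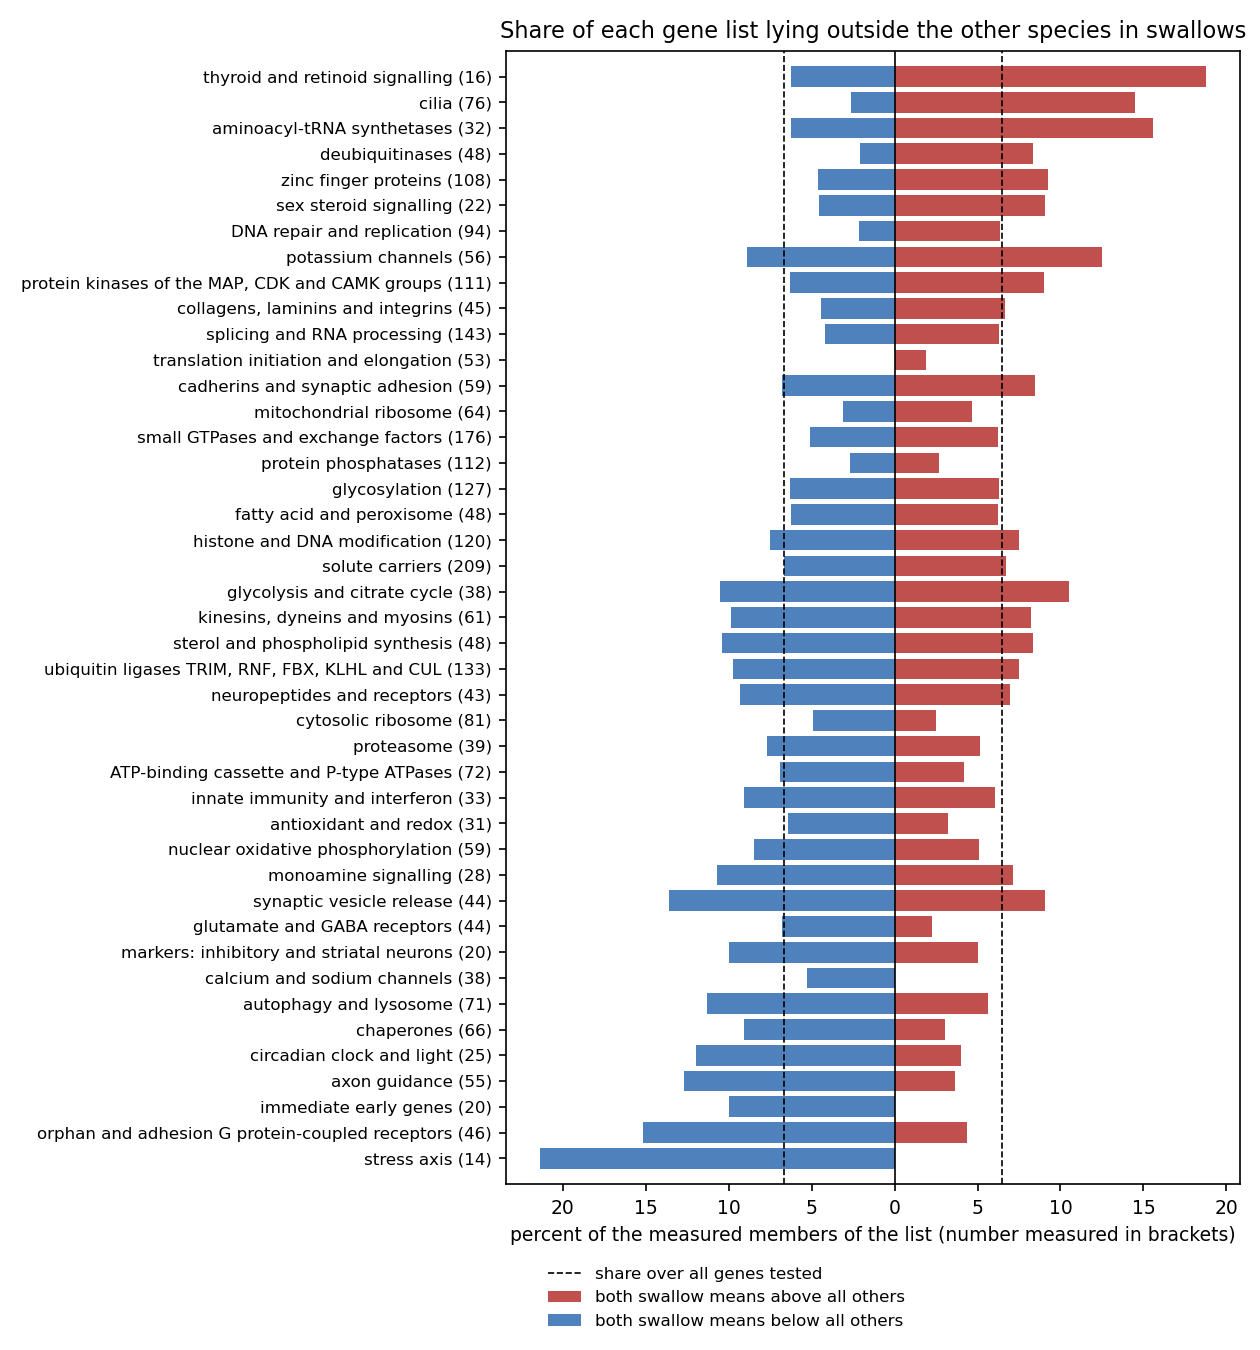
Percent of the measured members of each list (number in brackets; lists with at least 14) whose swallow means lay above (red, right) or below (blue, left) all 8 other species; dashed lines mark the shares over all genes tested, 6.49% and 6.67%. Cilia, with 11 higher and 2 lower members, lies near the top, and the stress axis, with 0 higher and 3 lower, at the bottom.

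Energy metabolism was spread over both directions. Of 59 nuclear genes of oxidative phosphorylation, 3 lay above and 5 below, with a median of -0.194. Under library size alone this split turned to 6 above and 4 below, with a median of -0.0888. SDHB, the iron-sulphur subunit of succinate dehydrogenase, had medians of 68.4 CPM in Tree Swallows (46.1 to 79.1) and 85.5 in Barn Swallows (62.1 to 110) against 197 in the others (73.6 to 533). NDUFB3, a complex I subunit, lay on the other side with means of 174 and 162 CPM against 87.8 to 140. Glycolysis and the citrate cycle had 4 higher and 4 lower of 38. Of the pyruvate dehydrogenase complex, PDHB lay above, with means of 23.6 and 22.2 CPM against 0.888 to 17.9. PDHA1 lay below, with 120 and 103 CPM against 128 to 212. Neither passed the test (limma adjusted p 0.678 and 0.72). IDH3B, of the citrate cycle, differed between the swallows, at 58.5 CPM in Tree and 144 in Barn Swallows, and both lay below 217 to 321 elsewhere. Among 12 mitochondrially encoded subunits only ND4L separated, at 1410 and 911 CPM against species means from 1.23 to 651. The other species were far apart, with 1.23 CPM in Prothonotary Warblers and 1.41 in Eastern Bluebirds but 651 in Carolina Wrens. The difference was 4.32 ± 2.93 log2 units (limma adjusted p 0.796), and whether ND4L was counted alike in all species was not tested.

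Of 81 cytosolic ribosomal proteins, 2 were above and 4 below (median -0.0885, and 0.0171 with library size alone), and of 53 initiation and elongation factors 1 was above and 0 below. RPL18 had means of 13.8 and 16.1 CPM against 29.9 to 63.0, and RPS3A, far more heavily counted, 600 and 565 against 859 to 1540. The aminoacyl-tRNA synthetases, which load amino acids onto tRNA, had 5 higher and 2 lower of 32. Of those 5, the mitochondrial enzyme EARS2 had means of 47.8 and 33.5 CPM against 12.6 to 22.1. NARS2, also mitochondrial, had means of 30.5 and 23.0 CPM against a wide range from 0.193 in American Robins to 18.3 in Prothonotary Warblers. The cytosolic TARS1 lay below, at 67.0 and 70.6 CPM against 80.4 to 185. EIF2AK3, the PERK kinase that slows initiation when the endoplasmic reticulum is stressed and that the pattern for initiation factors also took in, had means of 108 and 111 CPM against 37.5 to 79.9.

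Genes of protein turnover lay on both sides. The proteasome had 2 higher and 3 lower of 39 (2 and 2 with library size alone), with PSMD2 at 188 and 173 CPM against 246 to 475. The ubiquitin ligases had 10 higher and 13 lower of 133, which turned to 14 higher and 8 lower with library size alone. The deubiquitinases had 4 higher and 1 lower of 48. USP9X, a deubiquitinase of the developing brain, had medians of 863 CPM in Tree Swallows (719 to 1030) and 788 in Barn Swallows (645 to 991) against 374 in the others (248 to 930). Chaperones had 2 higher and 6 lower of 66 with a median of -0.200. HSP90AA1, the inducible HSP90 that also holds steroid receptors ready for hormone, had means of 7490 and 6540 CPM against 8640 to 12200.

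Autophagy and lysosome genes had 4 higher and 8 lower of 71, a median of -0.140. CTSB, a lysosomal protease, had medians of 136 CPM in Tree Swallows (92.1 to 174) and 193 in Barn Swallows (149 to 316) against 396 in the others (177 to 712). ATG7, which activates the proteins that build autophagosomes, had means of 35.8 and 31.1 CPM against a narrow 49.4 to 63.1. VPS4B, which takes apart the ESCRT coat, lay above at 85.5 and 99.5 CPM against 25.4 to 73.0. With library size alone the split of this list turned to 8 higher and 3 lower, so its direction rests on the scaling.

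Potassium channels had 7 higher (12.5%) and 5 lower (8.93%) of 56. Their median was -0.0995, and 22 of the 56 had differences above 0. KCNB2, a delayed rectifier, had medians of 46.0 CPM in Tree Swallows (33.2 to 66.9) and 44.7 in Barn Swallows (23.5 to 51.5) against 20.3 in the others (10.2 to 34.2). KCNG4, a silent subunit that joins such channels, had means of 7.94 and 8.19 CPM against 0.848 to 5.28, and KCNMB2, a subunit of calcium-activated channels, 10.9 and 8.93 against 5.12 to 7.40. On the lower side stood KCNRG, described above. Calcium and sodium channels had 0 higher and 2 lower of 38. CACNG7, the glutamate receptor subunit described above, was 1 of the 2 lower members. TRPC5, a cation channel, had means of 26.4 and 31.5 CPM against 41.1 to 79.0.

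Glutamate and GABA receptors had 1 higher and 3 lower of 44 (4 and 3 with library size alone), with a median of 0.0435. The kainate receptor subunit GRIK5 had medians of 18.2 CPM in Tree Swallows (6.82 to 31.9) and 17.8 in Barn Swallows (10.8 to 50.9) against 72.2 in the others (16.2 to 260). GRIK3, another kainate subunit, had means of 25.3 and 31.6 CPM against 31.3 to 137 and separated on the log scale although its CPM means touch. GABBR1, a subunit of the GABA-B receptor, had means of 222 and 256 CPM against 271 to 497. GABRB2, a GABA-A subunit, lay above at 132 and 165 CPM against 34.2 to 128.

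Vesicle release genes had 4 higher and 6 lower of 44 (4 and 4 with library size alone). Among the membrane fusion proteins, VAMP2 of the vesicle lay at 32.5 and 56.0 CPM against 76.5 to 156 and SNAP25 of the plasma membrane at 1050 and 1200 against 1320 to 1840. The vesicle GTPase RAB3A had means of 130 and 196 CPM against 246 to 523. Its active zone partner RIMS2 lay above, at 61.8 and 68.4 CPM against 30.9 to 52.9, as did RIMS1 and RIMS3. No member of this list passed the test, and the adjusted p (limma) of the 4 genes with values here lay between 0.336 and 0.700.

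Axon guidance genes had 2 higher and 7 lower of 55, of which 1 lower member, UNC50, is no guidance gene and was taken in by its name. EFNA2, an ephrin ligand, had medians of 1.75 CPM in Tree Swallows (0.525 to 5.73) and 1.77 in Barn Swallows (0 to 3.37) against 10.4 in the others (2.61 to 19.7), at a difference of -2.29 ± 0.45 log2 units (adjusted p 0.132). SEMA3G, a secreted semaphorin, had means of 4.97 and 2.80 CPM against 9.49 to 20.3. UNC5B, a netrin receptor, had means of 7.24 and 8.37 CPM against 7.93 to 16.3, which overlap in CPM though not on the log scale. Cadherins and synaptic adhesion proteins had 5 higher and 4 lower of 59. CDH13, a cadherin held by a lipid anchor, had means of 285 and 228 CPM against 113 to 156, and CADM4, an adhesion protein of the axon and its sheath, 0.787 and 1.06 against 3.28 to 27.1.

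Orphan and adhesion G protein-coupled receptors had 2 higher and 7 lower of 46. ADGRL4, an endothelial adhesion receptor, had means of 12.8 and 8.51 CPM against 20.5 to 43.2, and GPR162 had 142 and 123 against 170 to 215. Transporters were balanced under TMM, with 14 higher and 14 lower of 209 solute carriers (20 and 11 with library size alone). SLC8A1, a sodium-calcium exchanger, had medians of 83.8 CPM in Tree Swallows (66.0 to 104) and 52.8 in Barn Swallows (37.5 to 65) against 161 in the others (69.8 to 275). SLC44A3, of the choline transporter family, had means of 42.7 and 38 CPM against 6.09 to 26.2. Of 72 ATP-binding cassette and P-type pumps, 3 were above and 5 below (6 and 5 with library size alone). ATP13A2, a lysosomal polyamine exporter, had means of 18.5 and 13.3 CPM against 37.9 to 53.7 (-1.52 ± 0.28, adjusted p 0.0962).

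Cilia genes had 11 higher and 2 lower of 76, and 57 of the 76 had differences above 0, with a median of 0.376 (0.480 with library size alone). DNAH10, an inner arm dynein of motile cilia, had medians of 77.7 CPM in Tree Swallows (37.4 to 87.0) and 114 in Barn Swallows (93.8 to 166) against 45.7 in the others (7.68 to 82.1). CFAP61, of the radial spokes, had means of 41.0 and 42.0 CPM against 9.14 to 36.4, and DNAAF4, an assembly factor for dynein arms, 25.7 and 40.5 against 6.13 to 21.8. BBS10, a chaperonin-like protein of the primary cilium, had means of 147 and 95.3 CPM against 28.0 to 81.2. Their adjusted p (limma) ran from 0.514 to 0.655. One higher member, SPAG7, was taken in by its name only.

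Multiciliated ependyma and choroid plexus border the ventricle near the sampled region. Their 5 measured markers of 11 summed to 91.7 to 3950 CPM in Tree Swallows (median 276) and 94.1 to 11200 in Barn Swallows (median 1030), most of it TTR. The thrushes had higher medians, 2420 in Eastern Bluebirds and 4850 in American Robins, and the other 6 species medians from 78.6 to 174. FOXJ1, the master regulator of motile cilia, had means of 6.86 and 5.98 CPM in the swallows against 1.44 to 7.16. None of the 5 markers separated swallows. The summed cilia list had medians of 3380 and 3220 CPM in Tree and Barn Swallows, 3220 in Prothonotary Warblers and 2120 to 2930 in the other 7 species. The part of ventricle-lining cells in the cilia values was not tested.

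Lipid genes lay on both sides, and no member passed the test. ACSL3, which activates fatty acids, had means of 180 and 164 CPM against 34.3 to 126, and CPT1A, which brings them into mitochondria, 187 and 144 against 50.6 to 117. The regulators of lipid synthesis SREBF1 and SREBF2 lay below, SREBF1 at 14.7 and 13.3 CPM against 18.9 to 45.9 and SREBF2 at 65 and 46.3 against 77.8 to 197. PEX10, a peroxisome assembly factor, had means of 8.04 and 7.12 CPM against 15.6 to 63.8. In counts, sterol and phospholipid synthesis had 4 higher and 5 lower of 48 (6 and 4 with library size alone). Fatty acid and peroxisome genes had 3 and 3 of 48. Glycosylation genes had 8 and 8 of 127 (12 and 6 with library size alone).

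Sex steroid genes had 2 higher and 1 lower of 22. ESR1, the estrogen receptor alpha, had medians of 11.0 CPM in Tree Swallows (6.95 to 20.5) and 9.70 in Barn Swallows (5.18 to 13.9) against 5.22 in the others (0 to 14.9), with overlap (1.03 ± 0.47 log2 units, adjusted p 0.622). SRD5A1, which converts testosterone to a stronger androgen, had means of 11.9 and 10.0 CPM against 1.87 to 5.53. STARD3, a cholesterol carrier, lay below at 11.7 and 9.39 CPM against 15.2 to 45.3.

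The stress axis list had 0 higher and 3 lower of 14, although its median was 0.0885 and 9 of the 14 had differences above 0. CRH, the peptide that starts the hormonal stress response, had medians of 7.15 CPM in Tree Swallows (1.92 to 9.85) and 6.62 in Barn Swallows (1.55 to 13.9) against 11.0 in the others (2.86 to 43.5). NR3C2, the mineralocorticoid receptor, had means of 78.3 and 56.0 CPM against a narrow 89.4 to 112, while the glucocorticoid receptor NR3C1 had 59.5 and 71.8 against 21.1 to 66.1 and did not separate. The third was HSP90AA1, given above. CRHR1, the main CRH receptor, had means of 27.9 and 18.9 CPM against 6.45 to 27.7.

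Neuropeptide and monoamine genes had single members on each side. Of 43 neuropeptide genes, 3 were above and 4 below (4 and 4 with library size alone), with a median of 0.164. GRPR, the receptor for gastrin-releasing peptide, had means of 17.6 and 20.1 CPM against 3.87 to 13.3, and NPY1R, a neuropeptide Y receptor, 7.92 and 8.81 against 9.44 to 18.8. RXFP3, the relaxin-3 receptor, had means of 1.60 and 3.46 CPM against 5.68 to 15.6, the widest gap of the list. Of 28 monoamine genes, 2 were above and 3 below (2 and 1 with library size alone). TH, the rate-limiting enzyme of catecholamine synthesis, had medians of 9.22 CPM in Tree Swallows (2.98 to 32.9) and 12.8 in Barn Swallows (7.26 to 30.9) against 7.87 in the others (1.60 to 26.5), a wide overlap. HTR2A, a serotonin receptor, had means of 11.6 and 9.32 CPM against 11.3 to 13.0, and separated on the log scale only.

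Of 25 clock and light genes, 1 was above and 3 below. RORB, a nuclear receptor that also marks a class of excitatory neurons in mammals, had means of 26.1 and 32.4 CPM against 3.07 to 22.9. NPAS2, a partner of BMAL1, had means of 35.4 and 31.9 CPM against 39.2 to 85.5, and BHLHE40, a clock repressor, 20.8 and 25.6 against 27.0 to 48.6. Thyroid and retinoid genes had 3 higher and 1 lower of 16. ALDH1A3, which makes retinoic acid, had means of 20.7 and 19.5 CPM against 2.11 to 14.5, and CRYM, which binds thyroid hormone in the cell, 51.9 and 58.5 against 25.9 to 48.7. Of 20 immediate early genes, 0 were above and 2 below, HOMER1 at 30.4 and 41.8 CPM against 44.0 to 94.8 and KLF10 at 10.1 and 9.32 against 10.6 to 20.2.

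DNA repair and replication genes had 6 higher and 2 lower of 94. GEN1, which cuts Holliday junctions, had means of 39.7 and 30.5 CPM against 6.68 to 20.9, and MCM8, a helicase of recombination repair, 48.2 and 61.7 against 12.7 to 35.2. Chromatin genes were balanced under TMM, with 9 above and 9 below of 120 (11 and 6 with library size alone). DNMT1, the maintenance DNA methyltransferase, had means of 25 and 23.4 CPM against 0.534 to 15.9. BRD2, a reader of acetylated histones, was at 11.7 CPM in Tree and 40.4 in Barn Swallows against 63.9 to 212, so the swallows differed from each other as well.

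Markers of microglia, the immune cells of the brain, lay low in swallows but within the range of the other species as a sum. Of 14 markers 9 were measured, 0 lay above and 4 below, and the median difference was -0.735. C1QB, a complement component, had medians of 1.22 CPM in Tree Swallows (0.169 to 3.76) and 1.61 in Barn Swallows (0 to 5.75) against 12.2 in the others (0 to 74.4), a difference of -2.62 ± 0.67 log2 units (adjusted p 0.287). LY86 had means of 1.96 and 1.60 CPM against 2.93 to 13.3, and P2RY12, a nucleotide receptor of resting microglia, 17.8 and 14.9 against 20.6 to 31.6. TREM2 had 1.17 and 1.63 CPM, which overlaps a lowest other mean of 1.34. CSF1R, the receptor microglia need to survive, was not among them, at 54.1 and 44.6 CPM against 28.1 to 101. The 9 markers summed to 126 and 123 CPM in Tree and Barn Swallows, and the other species' means ran from just below these values to 387. The complement gene C3 lay below as well, at 2.97 and 2.50 CPM against 5.38 to 24.4, whereas IFNGR1, an interferon gamma receptor chain, lay above at 112 and 75.1 against 12.4 to 47.3.

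Markers of other cell types were present in both swallows, and no measured marker was under 1 CPM in both. The astrocyte markers, 7 measured of 12, summed to 2350 CPM in Tree and 1920 in Barn Swallows against 1400 to 1960, and 2 lay above. SLC1A2, the glial glutamate transporter, had medians of 974 CPM in Tree Swallows (602 to 1440) and 499 in Barn Swallows (334 to 615) against 246 in the others (57.1 to 800). The astrocyte markers did not share one direction, and AQP4, the astrocyte water channel, had means of 29.6 CPM in Tree and 53.7 in Barn Swallows against 51.7 to 191 (log2 difference -1.67, limma adjusted p 0.356), without separating. SLC1A3, a second glial glutamate transporter, differed by -0.18 log2 units (limma adjusted p 0.957). Oligodendrocyte markers (7 of 15) summed to 1010 and 837 CPM against 667 to 1270, endothelial and mural markers (12 of 14) to 501 and 471 against 419 to 681, and blood markers (7 of 14) to 1010 and 1090 against 756 to 2340. Excitatory neuron markers (9 of 12) summed to 1160 and 1060 CPM against 873 to 2190, and inhibitory and striatal markers (20 of 24) to 2640 and 3350 against 2150 to 3420. Hypothalamic markers (4 of 15) summed to 96.4 and 87.1 CPM against 48.5 to 119, and cerebellar markers (7 of 10) to 386 and 507 against 264 to 489. The part of cell composition in the values above was not tested.

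The sex difference was a measure that the separation rule had not used. The female minus male difference of mean log2 CPM was compared between the 2 swallow species and the 8 others (limma on 10 species differences, family as a correlated block). In 21 genes (0.197%) it passed an adjusted p under 0.05, and in all 21 swallow females were lower relative to males than females of the other species. Before adjustment 442 genes (4.16%) had p under 0.05, of which 369 had that sign. With single birds as units, edgeR's interaction test called 31 genes of that sign and 9 of the other. The count moved with the swallow species that entered, each time with the lone swallow species assumed to vary as the others do. Without Barn Swallows 2 genes of that sign and 0 of the other passed, and 2 of the 21 stayed past the threshold. Without Tree Swallows 64 genes of that sign and 7 of the other passed, and 12 of the 21 stayed. Without Carolina Wrens 11 stayed.

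LAS1L, which processes ribosomal RNA, had the lowest p. In Tree Swallows females ranged from 40.1 to 49.5 CPM (median 45.9) and males from 86.9 to 96.7 (median 89.8). In Barn Swallows females ranged from 52.3 to 75.7 CPM (median 58.4) and males from 92.7 to 116 (median 105). The sexes did not overlap in either swallow, and females were lower by 1.00 and 0.78 log2 units, while the other species lay between -0.05 and 0.18. The contrast was -0.94 ± 0.09 log2 units (adjusted p 0.00196), and LAS1L passed in all 10 fits that leave out a species.

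SLC25A5, an ADP/ATP exchanger of mitochondria, ranged from 60.2 to 89.8 CPM in Tree Swallow females and from 112 to 141 in males, and from 38.3 to 79.5 in Barn Swallow females and 108 to 119 in males. It was also a lower separating gene. SLC25A43, a mitochondrial carrier, ranged from 37.1 to 52.8 CPM in Tree Swallow females and from 73.8 to 111 in males, and from 3.72 to 23.8 in Barn Swallow females and 32.4 to 46.3 in males. LAMP2, a lysosomal membrane protein, ranged from 134 to 169 CPM in Tree Swallow females and from 227 to 293 in males, and from 122 to 177 in Barn Swallow females and 212 to 281 in males. In these 3 genes also the sexes did not overlap in either swallow. LAS1L and these 3 genes were chosen by their sex difference in the same birds. Their lack of overlap is therefore a description, and it was not counted over all genes. Their contrasts were -0.89 ± 0.09, -1.12 ± 0.12 and -0.71 ± 0.11 log2 units, with adjusted p of 0.00196, 0.00196 and 0.0252.

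Other genes with a symbol that passed included DOCK11, STEEP1, VEGFD, RADX, CHM, C1GALT1C1, IL1RAPL2, KCNRG, HPRT1, HEPH and COMMD5. In VEGFD, KCNRG and HEPH the sexes overlapped in both swallows, and in C1GALT1C1, HPRT1 and COMMD5 in 1 of them. KCNRG lay near 0, with means of 0.254 CPM in swallow females and 0.724 in males, and VEGFD had 2.36 and 4.43. With 6 doubted libraries left out, the adjusted p (limma) was 0.334 for KCNRG and 0.519 for VEGFD. DOCK11 and CHM act on small GTPases, HPRT1 salvages purines, and IL1RAPL2 is a synaptic receptor of the interleukin-1 receptor family. Of the 17 genes with a symbol, 15 are in a list of human X-linked genes, which was written after this result was seen. Of the 277 measured genes of that list, 21 had a female minus male difference below -0.5 in both swallows and in no other species. Among all 10637 genes tested there were 33 such genes. Without the condition on the other species, 23 genes of the list (8.3%) and 339 of all genes (3.19%) lay below -0.5 in both swallows. In single species, 11.9% of the list lay below -0.5 in Tree Swallows, 12.6% in Barn Swallows and 9.03% in House Wrens. Over all genes these shares were 4.55%, 9.36% and 10.5%. Each remaining species had at most 2.53% of the list below -0.5. The median of the list stood near 0 in both swallows, 0.003 in Tree and -0.012 in Barn Swallows, so most of its genes did not share the pattern. Chromosome positions were not used here, and which of these genes lie on the joined part of chromosome 4A was not tested.

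**Figure D4:**
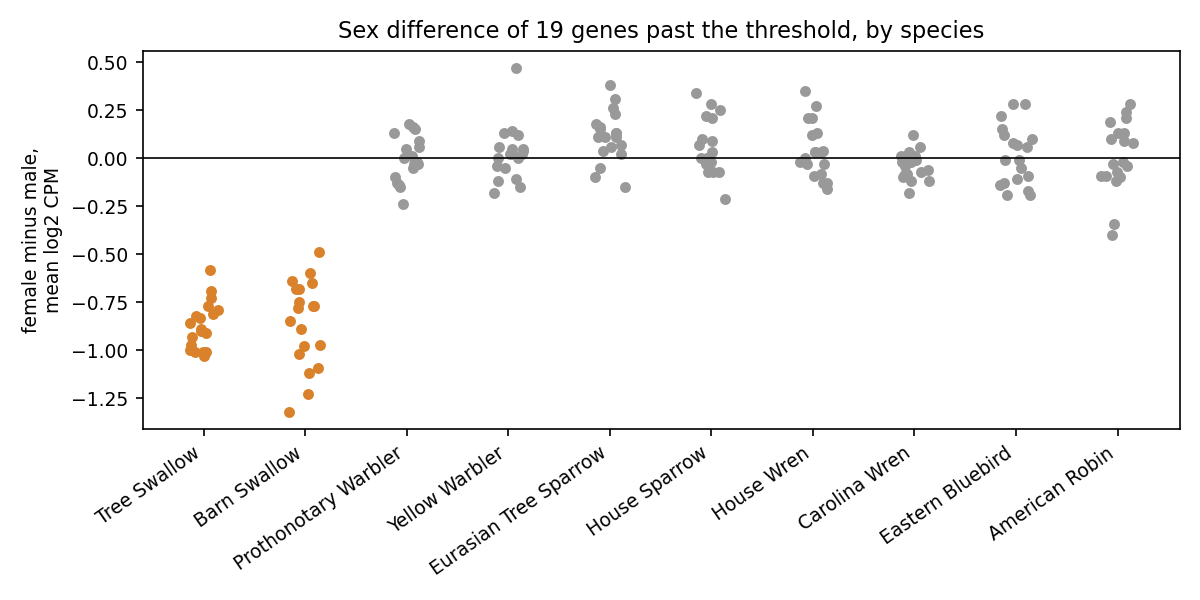
Female minus male difference of mean log2 CPM (vertical axis) in each species for 19 of the 21 genes that passed; swallows in orange, other species in grey. All plotted swallow values lie at -0.49 or lower, and those of the other species lie between -0.40 and 0.47.

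The level of LAS1L itself, averaged over sexes, did not set swallows apart. Tree Swallow females averaged 45.4 ± 3.43 CPM (SD, n = 7) and males 90.8 ± 3.45 (SD, n = 6), and Barn Swallow females 61.4 ± 8.50 and males 105 ± 7.55 (SD, n = 6 each). Among the other species the means ran from 33.5 ± 2.29 CPM in House Sparrow males to 164 ± 22.6 in American Robin males (SD, n = 6 each), and the sexes overlapped in each of these 8 species.

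**Figure D5:**
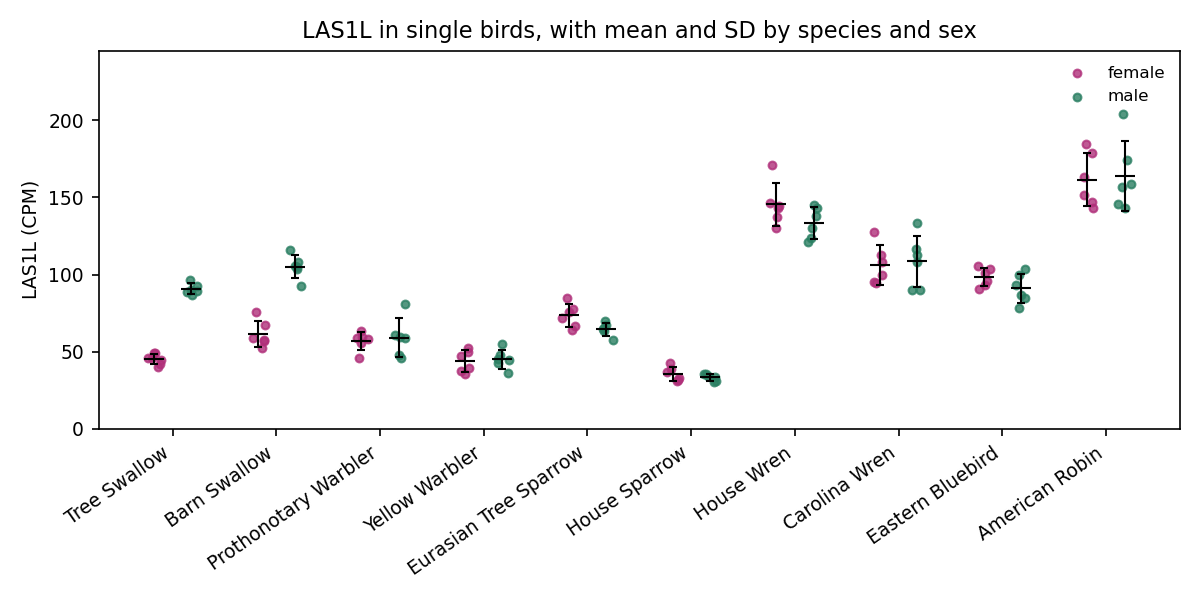
LAS1L in CPM (vertical axis) for each bird, females in magenta and males in green, with the mean and SD of each group of 6 or 7 birds in black. Males lie above females without overlap in both swallows, and the sexes overlap in each of the other 8 species.

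CUL4B, a scaffold of ubiquitin ligases, and HTATSF1, a splicing factor, had the lowest p among genes in which swallow females were relatively higher, and neither passed (adjusted p 0.163 and 0.433). CUL4B ranged from 36.2 to 50.3 CPM in Tree Swallow females and 16.3 to 30.3 in males, and from 190 to 289 in Barn Swallow females and 142 to 184 in males. HTATSF1 ranged from 124 to 144 CPM in Tree Swallow females and 87.0 to 108 in males, and from 111 to 183 in Barn Swallow females and 73.8 to 93.3 in males. In both genes the sexes did not overlap in either swallow, a description too, since low p in the same birds had chosen them. Both are in the human X-linked list as well.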

How the data were processed

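Whole ventromedial telencephalon of 25 swallows and 96 other wild birds was sequenced, and the deposited table holds raw read counts for 10672 genes, each named by a zebra finch protein (911 with no gene symbol). Per the submitters' processing notes, the tools behind the counts that the authors deposited include featureCounts, Subread 2.02z, SAMtools 1.10, Bowtie2 2.4.4, fastp 0.20.1 and Trimmomatic 0.36, listed there without role or order. Per the labels' protocols, libraries came from a stranded mRNA kit. No source used here gives the reference or its fit to each species. Totals ran from 4526413 to 7549296 reads per bird, which limits the precision of genes with few counts.

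Samples were grouped by species, sex and family from the labels. Genes were filtered by edgeR 4.0.16 (filterByExpr by species, 10637 kept, 895 without symbol), scaled by TMM and turned into log2 CPM with a prior count of 2, which understates differences of genes near 0. Species means were compared by the separation rule and by limma 3.58.1 across all genes, two-sided, with family as a correlated block (correlation 0.357) and Benjamini-Hochberg adjustment at 0.05. This test of species means replaces a count test as the main one, since species and not birds are the units of a difference between families. Count tests on birds (edgeR, DESeq2 1.42.0) and other settings are alternatives. Birds are separate animals, and p-values over 10 species means rest on 2 swallow species. The separation rule and the limma test of species means were tried on simulated data, with an outcome not given here. In the test of the sex difference the correlation within families was -0.0303, so the 2 swallow species counted nearly as independent units. That test was not simulated and was not run on family means. Figures were drawn with matplotlib 3.10.9.

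Named genes have a symbol and are the 14 higher and 14 lower separating genes with the widest gap (mean of at least 5 CPM in both swallows, or in at least 4 other species), up to 4 separating members of each of 53 lists (not all are given in the text, and a few genes are not reported here), those at the edge of the rule and the 2 lowest p of each sign for the sex difference. Genes given beside these were chosen after their values were seen, namely the others that passed a test, those that separate all birds, relatives of called genes and members of the marker, steroid, stress and immune lists. The comparison, the lists and the rule were chosen with earlier results of these data known. Several lists were built from name patterns and hold a few genes outside their theme (UNC50, SPAG7 and EIF2AK3 among them).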

Additional observations from a re-analysis of the deposited data

Results flagged for a closer look

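In 21 genes the sex difference in swallows differed from that in the other species by a test of the difference itself (limma, adjusted p under 0.05). The difference of female minus male log2 values, swallows minus others, is given here for 19 of them. It was -0.94 for LAS1L, -1.12 for SLC25A43, -0.89 for SLC25A5, -1.07 for DOCK11, -0.98 for STEEP1, -1.17 for VEGFD and -0.96 for RADX. It was -0.78 for CHM, -0.76 for C1GALT1C1, -1.01 for IL1RAPL2, -0.82 for KCNRG, -0.59 for HPRT1 and -0.71 for LAMP2. It was -0.77 for HEPH, -0.78 for COMMD5, and -0.86, -0.97, -0.76 and -0.97 for 4 genes with no symbol. In both swallow species the female mean of log2 CPM lay below the male mean in all 21. In VEGFD, KCNRG and HEPH single females and males overlapped in both swallows.

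Single birds stood apart in 44 of 584 groups (7.53%; 146 named genes in the 4 groups of swallow females and males). The measure is the gap from an extreme bird to the next, as a share of the range of log2 CPM in the group, and chance sets apart about 1 in 20. Barn Swallow females 3 and 4 made up 14 of the 44, each time as the lowest bird, and these are the libraries with the lowest correlation to their group. For female 3 the shares were 0.720 in CAMSAP3, 0.700 in CRHR1, 0.777 in CYTH4, 0.734 in HPRT1, 0.820 in SLC25A43, 0.806 in UNC50 and 0.642 in UNC5B. For female 4 they were 0.765 in ATF6, 0.666 in DOCK11, 0.703 in MAPKAPK2, 0.635 in SEMA3G, 0.701 in SRD5A1, 0.656 in STEEP1 and 0.677 in VPS4B. Without 6 doubted libraries, these 2 among them, 15 of the 21 sex differences remained past the threshold.

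The other low birds were Tree Swallow females in ARRDC2 (0.712), CACNG8 (0.744), LRGUK (0.649), SDHB (0.600) and SREBF1 (0.634), and Tree Swallow males in FOXJ1 (0.742), HTR2A (0.867), SREBF2 (0.645) and TREM2 (0.774). Barn Swallow males were low in NR3C2 (0.704) and TREM2 (0.775).

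High birds were Tree Swallow males in BHLHE40 (0.646), HTATSF1 (0.681), LRP2 (0.724), LRRC59 (0.675), NR3C1 (0.738), RIMS1 (0.855), RIMS2 (0.795) and SLC25A5 (0.729). Tree Swallow females were high in IL1RAPL2 (0.664), KCNB2 (0.613) and KCNMB2 (0.616). Barn Swallow males were high in C1GALT1C1 (0.654), GEN1 (0.630), HTR2A (0.636) and NARS2 (0.647), and Barn Swallow females in CADM4 (0.788), NPAS2 (0.637), TH (0.642) and TIA1 (1).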

How the results depend on the processing

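Of 134 recomputed counts, 106 stayed within 1.5 times their main value or, where that value was 0, stayed at 0. No sign turned in 190 log2 differences and 23 sex differences of named genes. Nearly all of these genes were named for separating swallows or for their sex difference, so their signs had little room to turn. Leaving out each species gave 759 to 1539 higher and 747 to 1545 lower separating genes, 0 to 3 higher and 9 to 24 lower genes past limma, and 0 to 7 higher and 2 to 64 lower sex differences; fewer species make the separation rule easier to meet. The lowest limma count came without American Robins and the lowest sex count without Barn Swallows. With no correlated block, limma called 4 higher and 33 lower genes. With 5 family means it called 2 lower genes. With birds as units, voom called 372 higher and 232 lower, edgeR 2907 and 3494, edgeR with the bird number as replicate block 2845 and 3233, and DESeq2 2932 and 3582 genes. Treating birds of a species as independent, as edgeR and DESeq2 did here, counts each lineage many times. Genes in which all swallows lay above all other birds rose from 6 to 13 with library size alone and to 13 without 6 doubted libraries. The edgeR interaction on birds called 9 higher sex differences. Bird numbers only name birds, and same-numbered birds did not deviate together (median correlation -0.0257 against 0.00198 for other numbers).

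Of 13 named genes past limma, 7 stayed past it with each species left out. The causes of the other losses were not tested. Few reads per bird limit the precision of values near 0 CPM in swallows, such as those of TIA1. How well swallow reads of such genes match the sequence used for counting was not tested.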
